A study of Mus musculus with 11 samples.

Results

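The 10 genes described here encode cyclins and kinases that drive cells into and through division: the cyclins Ccna1, Ccna2, Ccnb1 and Ccnb2, the kinase Cdk1, its activating phosphatase Cdc25c, the Polo-like kinase Plk1 and the Aurora kinases Aurka, Aurkb and Aurkc. They were picked by name, as the rows whose Ensembl identifiers carry these symbols in GENCODE release M21, and make up 10 of the 23074 genes counted in testis RNA at postnatal day 21 (P21). Decapsulated testes of 5 wild type (WT) and 6 Rfx2-/- mice were compared as biological replicates, all on a mixed C57BL/6, 129/Sv and FVB/N background. The Rfx2-/- mice lacked, in every cell, a loxP-flanked exon of Rfx2 that codes for much of the DNA-binding domain. This exon was targeted in ES cells of strain 129/Sv and removed with a ubiquitously expressed Cre carried by an FVB/N line, so the loss was not limited to germ cells. The study describes its mixed-background line as retaining the neomycin selection cassette. A further line without the cassette was backcrossed to C57BL/6. RFX2 is a transcription factor of spermatocytes and round spermatids. The question was how its absence affected testis transcripts at an age when the first wave of germ cells is completing meiosis.

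Cyclins activate cyclin-dependent kinases. CDK1 bound to a B-type or A-type cyclin brings about entry into M phase once a CDC25 phosphatase has removed its inhibitory phosphates, and Polo and Aurora kinases promote this activation, build the spindle and correct the attachment of chromosomes. In the testis the same machinery serves both the mitotic divisions of spermatogonia and the meiotic divisions of spermatocytes. Cyclin A1 is the A-type cyclin of spermatocytes, and male mice without it stop before the first meiotic division, whereas cyclin A2 serves dividing spermatogonia and somatic cells. AURKC is best known from meiotic cells.

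Promoter sequence upstream of the annotated start was at hand for 7 of the 10 genes (RefSeq, GRCm38.p6). Those of Ccnb2 (chr9:70421555-70421804, minus strand), Plk1 (chr7:122159185-122159434, plus strand) and Aurka (chr2:172370571-172370820, minus strand) are shown because these genes are among the 4 with the largest fitted difference between the genotypes and because their 250 bases hold no annotated exon. Each runs 5′ to 3′ towards the start. Capitals mark CCAAT on either strand, the core of the box bound by NF-Y, and TTTGAA on either strand, the core of the cell cycle homology region of late cell cycle genes.
Ccnb2: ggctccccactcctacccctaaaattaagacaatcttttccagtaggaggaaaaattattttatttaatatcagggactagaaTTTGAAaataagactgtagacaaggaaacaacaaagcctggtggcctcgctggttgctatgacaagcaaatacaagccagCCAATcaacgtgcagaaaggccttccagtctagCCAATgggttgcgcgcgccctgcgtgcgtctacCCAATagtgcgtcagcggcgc
Plk1: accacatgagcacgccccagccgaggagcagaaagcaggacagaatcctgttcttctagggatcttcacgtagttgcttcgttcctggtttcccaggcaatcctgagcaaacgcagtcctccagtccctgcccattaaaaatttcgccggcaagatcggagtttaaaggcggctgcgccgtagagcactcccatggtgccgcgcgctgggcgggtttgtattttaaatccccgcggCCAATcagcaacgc
Aurka: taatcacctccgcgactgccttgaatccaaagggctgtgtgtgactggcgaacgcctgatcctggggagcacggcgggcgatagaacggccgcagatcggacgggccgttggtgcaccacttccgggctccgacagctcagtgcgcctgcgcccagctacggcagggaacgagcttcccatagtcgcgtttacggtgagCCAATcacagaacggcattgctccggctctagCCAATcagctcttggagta
CCAAT was found in 6 of the 7 windows, against 33.8% of all 32851 RefSeq windows of the same length. Aurkc was the one without it. Ccnb2 and Cdk1 had 3 matches each, Ccnb1 and Aurka 2 each, and Ccna1 and Plk1 1 each. In 4 genes neighbouring matches on one strand lay at nearly the same spacing from start to start, which was 33 bases for both neighbouring pairs in Ccnb2 and 32 bases in Ccnb1, Cdk1 and Aurka. A further pair in Cdk1 lay 128 bases apart. TTTGAA was present in Ccnb2 and Cdk1 (16% of all windows). Neither GTTGCC, an RFX half-site (10.4% of all windows), nor TAACNG, a MYB site (19.8%), was present in any of the 7. Only these exact strings were searched, with N as any base. Sites that differ from them by a base were not counted. GTTGCT, which differs from the RFX half-site in its last base, stands in the printed Ccnb2 and Plk1 windows. The longer inverted repeat that the study found as the RFX motif was not searched. The absence of GTTGCC is therefore not an absence of RFX-like sequence, and MYB-like sequence may also be present. No match of one motif overlapped a match of another, both strands were searched, and a match or its absence in this window describes letters and not binding.

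All 10 genes passed the filter on low counts, as did 15745 genes in all. Total counts ranged from 26925157 to 29769483 in WT and from 22232097 to 27116903 in Rfx2-/- mice, and were higher in WT (two-sided exact permutation test, p = 0.0130, with n = 5 and 6). A count of 3 in a library corresponded to 0.0851 to 0.139 CPM (counts scaled to a common, TMM-adjusted library total, the unit used throughout), so every gene here except Aurkc was far above the floor of detection. WT replicates 3 and 5 stood apart from the rest. The 6 markers of pachytene spermatocytes summed to 3165 CPM in WT replicate 3 and 2969 CPM in WT replicate 5, against 6131 to 7254 CPM in the other 3 WT mice and 6105 to 7957 CPM in the 6 Rfx2-/- mice. Round spermatid markers were also lowest of all mice in WT replicates 3 (13.6 CPM) and 5 (8.45 CPM). They varied widely elsewhere, from 22.1 to 407 CPM in the other WT mice and from 23.7 to 481 CPM in Rfx2-/- mice. In whole testis, fewer cells of a type and less RNA per cell cannot be told apart. Rfx2 itself gave 326 ± 118 CPM in WT and 304 ± 14.6 CPM in Rfx2-/- mice (SD, n = 5 and 6). These counts cover all exons, so they do not check the deletion of one.

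No cyclin or kinase of the 10 passed the threshold in either direction (edgeR quasi-likelihood test, adjusted p of at most 0.01), which 1.94% of all tested genes passed as lower and 0.73% as higher in Rfx2-/- mice. The fitted log2 fold change was nevertheless above 0 in 9 of the 10, as in 45.2% of all tested genes, and its median was 0.36 against -0.05 over all tested genes. At an unadjusted p of at most 0.05, 6 genes were higher (18.1% of all genes) and 1 was lower (23.7%). With the adjusted limit at 0.05, Aurka alone was past it and higher (6.15% of all genes). Ccna1 and Aurka were the 2 genes in which every Rfx2-/- mouse lay above every WT mouse, as in 6.5% of all genes, and none showed the opposite (5.2%). The DESeq2 Wald test called 3 of the 10 higher (Aurka, Ccna1 and Plk1) where it called 7.28% of all genes higher, and limma voom with sample quality weights called 1 (Ccna1) where it called 2.33%. An unadjusted p of at most 0.01 was reached by those 3 genes on the higher side (7.49% of all genes). When edgeR was given a round spermatid marker score as covariate, Plk1 and Ccnb1 were called higher (4.67% of all genes).

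**Figure D1:**
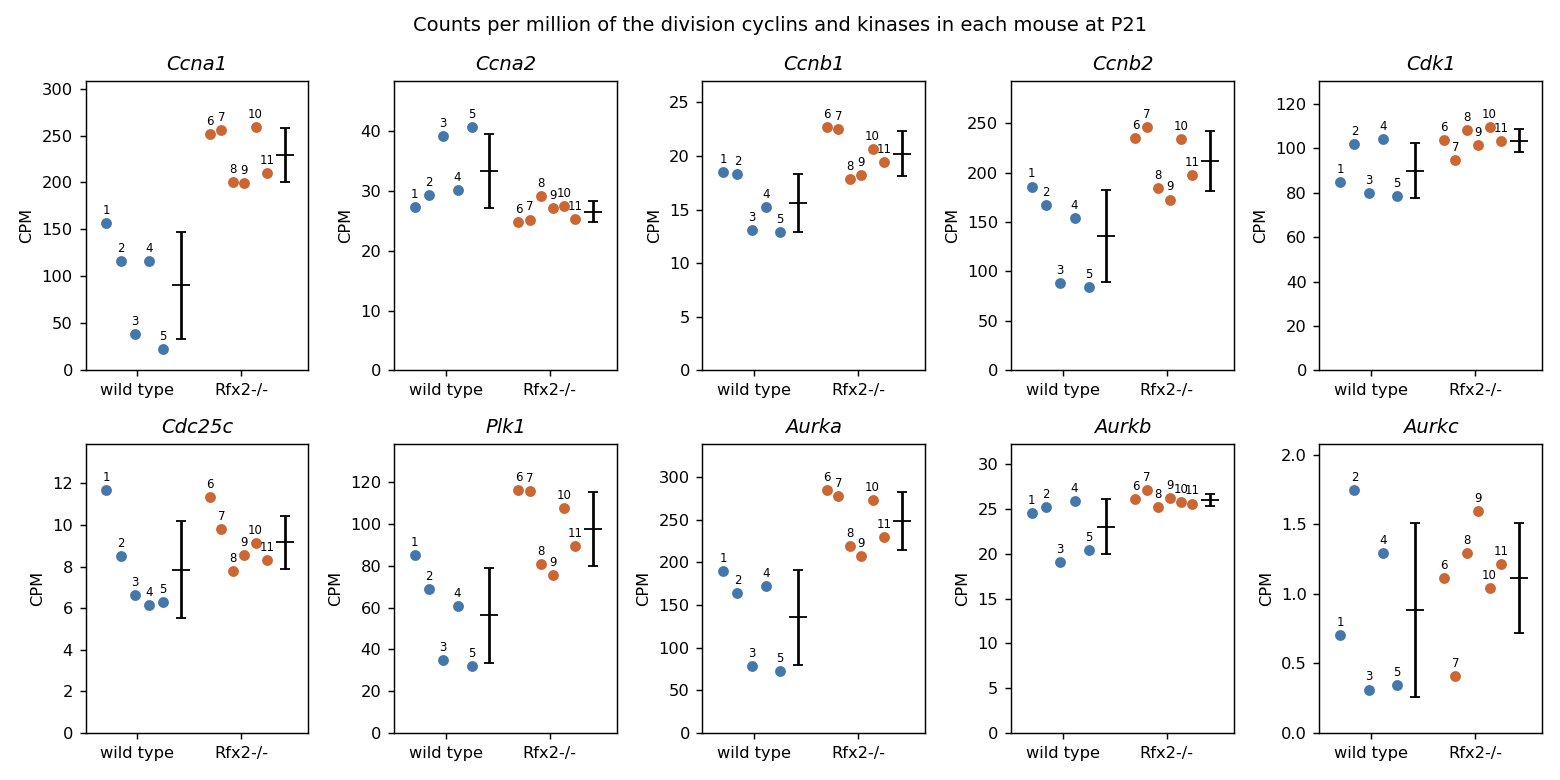
CPM (linear axis from 0) of the 10 genes in each mouse, WT in blue and Rfx2-/- in orange, with the replicate number above each point and the mean ± SD in black (n = 5 and 6). WT replicates 3 and 5 are the lowest WT mice in 8 panels and the highest in the Ccna2 panel, and the Rfx2-/- points spread less than the WT points in every panel.

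Ccna1, the cyclin of spermatocytes, had the largest fitted difference of the 10 genes. Its level was 157, 117, 38.2, 117 and 23.1 CPM in the WT mice, taken here and below in the order of replicates 1 to 5. In the Rfx2-/- mice, always given from replicate 6 to 11, it was 252, 256, 200.2, 199.7, 259 and 209.9 CPM. WT replicates 3 and 5 were far below the other WT mice, and the highest WT mouse was still below the lowest Rfx2-/- mouse. The means were 90.4 ± 57.3 and 229 ± 28.9 CPM (SD, n = 5 and 6), a fitted 2.54-fold difference with a 95% interval of 1.34 to 4.81. The adjusted p was 0.0523 (edgeR, log2 fold change 1.34 ± 0.42, SE). Of the 50-base words of its transcripts, 6.98% also occur in other genes, and 185 bases of its exons overlap the antisense gene 4931419H13Rik. The gene (ENSMUSG00000027793) lies on the minus strand at chr3:55045469-55055501 (GRCm38).

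Ccna2, the A-type cyclin of mitotic cells, was the only member with a negative fitted difference. WT mice 1 to 5 had 27.3, 29.3, 39.3, 30.1 and 40.7 CPM, and Rfx2-/- mice 6 to 11 had 24.8, 25.3, 29.2, 27.2, 27.6 and 25.3 CPM. Here WT replicates 3 and 5 were the highest of all mice, WT replicate 1 lay within the Rfx2-/- range, and WT replicates 2 and 4 just above it. The means were 33.4 ± 6.16 and 26.6 ± 1.72 CPM, with a log2 fold change of -0.33 ± 0.11 (SE) and an adjusted p of 0.0634 (edgeR). Exosc9 overlaps 510 bases of its exons, and 12.8% of its 50-base words are shared with other genes. Its locus is chr3:36564865-36572150, minus strand (ENSMUSG00000027715).

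The ratio of the 2 A-type cyclins does not depend on how libraries are scaled. Per kilobase of exon, Ccna1 was 91.9, 88.7, 65.8, 88.5 and 52.8% of the summed A-type cyclin level in WT replicates 1 to 5. In Rfx2-/- replicates 6 to 11 it was 95.3, 95.2, 93.1, 93.6, 94.9 and 94.2%. The genotypes did not overlap, and WT replicates 3 and 5 were again farthest from the Rfx2-/- mice. How often shares of other gene pairs separate in this way was not computed. Ccna1 was 1.12 to 11.4 times as abundant as Ccna2 in WT mice and 13.5 to 20.1 times as abundant in Rfx2-/- mice on this scale. Reads lost where other genes share sequence may shift these ratios, with 6.98% of the 50-base words shared for Ccna1 and 12.8% for Ccna2.

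**Figure D2:**
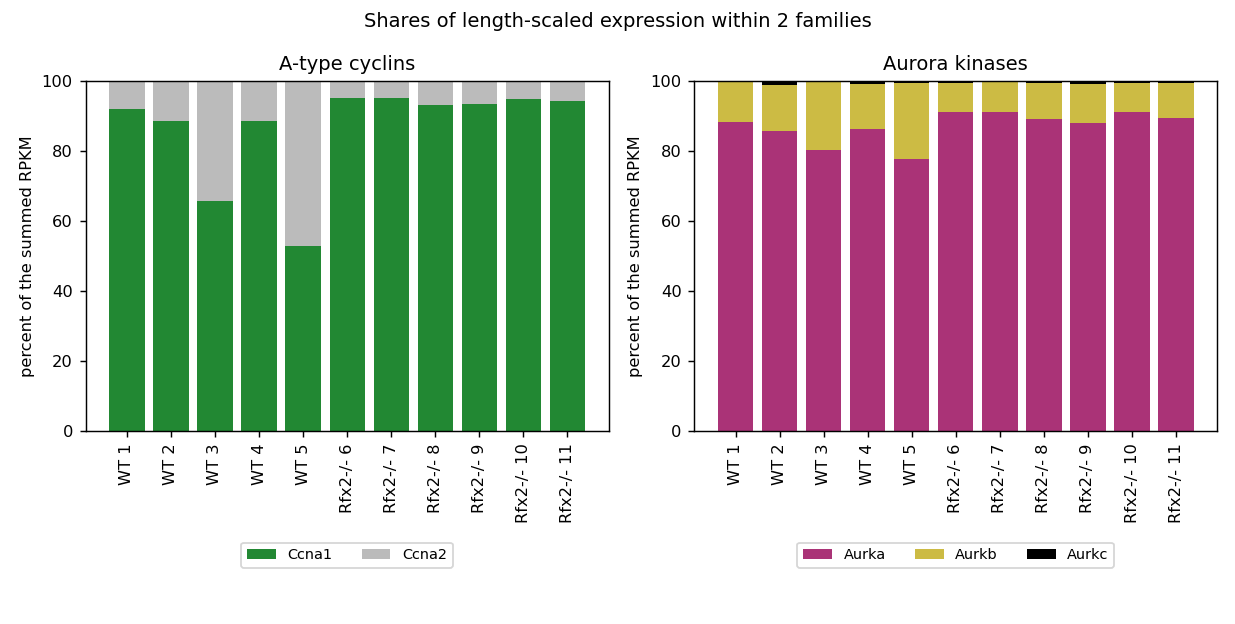
Share of the summed RPKM (CPM per kilobase of exon) taken by each A-type cyclin (left) and each Aurora kinase (right), with one bar per mouse and axes from 0 to 100%. Ccna1 takes 52.8% to 91.9% of the A-type cyclin level in WT and 93.1% to 95.3% in Rfx2-/- mice, whereas the Aurka shares of WT replicate 1 (88.2%) and Rfx2-/- replicate 9 (88.1%) overlap.

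The B-type cyclins bind CDK1 to form the M phase kinase. The 5 WT mice had 186, 168, 88.0, 154 and 84.1 CPM of Ccnb2, and the 6 Rfx2-/- mice had 235, 246, 185, 173, 234 and 197 CPM. Only WT replicate 1 reached into the Rfx2-/- range. The means were 136 ± 46.9 and 212 ± 30.6 CPM, a fitted 1.56-fold difference (95% interval 1.12 to 2.16, edgeR adjusted p = 0.0615). No 50-base word of Ccnb2 occurs in another gene. Ccnb2 (ENSMUSG00000032218) lies on the minus strand at chr9:70407692-70421547.

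Ccnb1 was lower throughout and differed less. Its WT values were 18.5, 18.3, 13.1, 15.3 and 12.9 CPM, and its Rfx2-/- values were 22.7, 22.5, 17.9, 18.3, 20.6 and 19.4 CPM. WT replicates 1 and 2 lay within the Rfx2-/- range. The fitted difference was 1.30-fold (95% interval 1.08 to 1.56, edgeR adjusted p = 0.0574). Of its 50-base words, 40.6% also occur in Ccnb1-ps and other pseudogenes, and the authors discarded reads that mapped to more than one place, so its level is a lower bound on that of the transcript. Ccnb1 (ENSMUSG00000041431) lies at chr13:100778650-100786570, minus strand. Ccnb2 made up 91.4 to 94.3% of the summed B-type cyclin level per kilobase in WT and 93.9 to 94.9% in Rfx2-/- mice, which overlapped and which carry the same limit.

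Cdk1, the kinase that these cyclins activate, varied little. WT replicates 1 to 5 had 84.8, 102, 79.8, 104 and 78.4 CPM, and Rfx2-/- replicates 6 to 11 had 104, 94.7, 108, 102, 109.6 and 104 CPM. WT replicates 2 and 4 sat among the Rfx2-/- mice, and WT replicate 1 did not. The fitted difference was 1.15-fold (95% interval 1.01 to 1.31, edgeR adjusted p = 0.0970). Cdk1 shares no 50-base word with another gene (ENSMUSG00000019942, chr10:69335146-69352938, minus strand).

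Cdc25c, which encodes a phosphatase that activates CDK1, was expressed at a low level. Its WT values were 11.7, 8.51, 6.61, 6.16 and 6.31 CPM and its Rfx2-/- values were 11.3, 9.82, 7.81, 8.58, 9.12 and 8.31 CPM. The highest of all mice was WT replicate 1 and the genotypes overlapped. The fitted difference was 1.17-fold with a 95% interval of 0.888 to 1.53, so it was not resolved in direction (edgeR adjusted p = 0.351). Cdc25c (ENSMUSG00000044201) shares no 50-base word with another gene.

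Plk1, the Polo-like kinase of M phase entry, spindle assembly and exit from division, ranked the WT mice as Ccnb2 did. The WT mice had 85.4, 69.2, 35.0, 60.8 and 32.0 CPM, and the Rfx2-/- mice had 116, 116, 80.9, 75.8, 108 and 89.5 CPM. WT replicate 1 exceeded Rfx2-/- replicates 8 and 9 and was the only WT mouse in the Rfx2-/- range. The means were 56.5 ± 22.8 and 97.7 ± 17.9 CPM, a fitted 1.73-fold difference (95% interval 1.18 to 2.54, edgeR adjusted p = 0.0548). Plk1 (ENSMUSG00000030867) lies at chr7:122159439-122169873, plus strand. The gene Gm44985 overlaps 156 bases of its exons, and 10.7% of its 50-base words occur in Gm44985 or Plk-ps1.

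Among the Aurora kinases, Aurka, which acts at the spindle poles, had the smallest adjusted p of the 10 genes. WT replicates 1 to 5 had 189.9, 164, 78.8, 172 and 72.4 CPM, and Rfx2-/- replicates 6 to 11 had 285, 278, 219, 207, 273 and 229 CPM. The genotypes did not overlap. The means were 135 ± 55.5 and 249 ± 34.0 CPM, a fitted 1.84-fold difference (95% interval 1.25 to 2.71) with a log2 fold change of 0.88 ± 0.25 (SE, edgeR adjusted p = 0.0444). None of its 50-base words occurs in another gene. Aurka (ENSMUSG00000027496) lies at chr2:172356190-172370535, minus strand.

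Aurkb, the catalytic subunit of the chromosomal passenger complex, was nearly level among the Rfx2-/- mice. Its WT values were 24.6, 25.3, 19.0, 25.9 and 20.5 CPM and its Rfx2-/- values were 26.1, 27.2, 25.3, 26.2, 25.8 and 25.6 CPM. WT replicate 4 lay within the Rfx2-/- range, and WT replicate 2 equalled its lowest value to the digits given. The fitted difference was 1.13-fold (95% interval 0.987 to 1.29, edgeR adjusted p = 0.150). Aurkb (ENSMUSG00000020897, chr11:69045647-69051664, plus strand) shares no 50-base word with another gene. Per kilobase, Aurka was 7.78, 6.54, 4.17, 6.70 and 3.57 times as abundant as Aurkb in WT replicates 1 to 5. The same ratio was at least 7.96 in every Rfx2-/- mouse, its value in replicate 9, so the genotypes narrowly did not overlap. The ratio of Ccnb2 to Cdk1, taken in the same way, did overlap (3.17 to 6.49 in WT and 5.04 to 7.69 in Rfx2-/- mice). How often ratios of other gene pairs separate was not computed.

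Aurkc was barely detected, with 10 to 52 counts per mouse. The WT mice had 0.704, 1.75, 0.312, 1.30 and 0.346 CPM, and the Rfx2-/- mice had 1.12, 0.413, 1.29, 1.60, 1.04 and 1.22 CPM, with full overlap. It gave 0.881 ± 0.626 CPM in WT and 1.11 ± 0.394 CPM in Rfx2-/- mice, and the fitted 1.27-fold difference had a 95% interval of 0.617 to 2.60 (edgeR adjusted p = 0.587). Much of its sequence is not unique, since 54.8% of its 50-base words occur in other genes, among them Gm12463, Gm6909 and Gm7789 (ENSMUSG00000070837, chr7:6995300-7003091, plus strand). No direction can be given for Aurkc at this depth, and its low value is not a measure of the true transcript level.

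Per kilobase of exon, Ccnb2 was the most abundant of the 10 in WT, at 88.8 ± 30.7 RPKM (SD, n = 5). Aurka followed at 69.8 ± 28.6 and Ccna1 at 49.3 ± 31.2 RPKM. Plk1 (25.7 ± 10.4 RPKM) and Cdk1 (19.8 ± 2.73 RPKM) came next. Aurkb stood at 11.8 ± 1.59, Ccna2 at 9.20 ± 1.70, Ccnb1 at 6.27 ± 1.10, Cdc25c at 4.04 ± 1.20 and Aurkc at 0.579 ± 0.411 RPKM. The ranges of mean ± SD of neighbours in this order overlapped except between Cdk1 and Aurkb, between Ccna2 and Ccnb1, and between Cdc25c and Aurkc. The levels of Ccnb1 and Aurkc are lower bounds, with 40.6% and 54.8% of their 50-base words shared with other genes. Their places in this order, that of Ccnb1 below Ccna2 included, are therefore not settled. Those of Ccna2 (12.8% of words shared), Plk1 (10.7%) and Ccna1 (6.98%) may also be too low, since reads overlapping exons of different genes were discarded. In Rfx2-/- mice Ccnb2 (138 ± 20.0), Aurka (128 ± 17.5) and Ccna1 (125 ± 15.8 RPKM) again led and again lay within one another's spread. Ccnb1 (8.13 ± 0.831 RPKM) and Ccna2 (7.32 ± 0.474 RPKM) had the reverse order there, under the same limit, and their ranges of mean ± SD met. Plk1 stood at 44.4 ± 8.14, Cdk1 at 22.8 ± 1.18, Aurkb at 13.3 ± 0.331, Cdc25c at 4.71 ± 0.651 and Aurkc at 0.731 ± 0.259 RPKM.

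The WT mice varied more than the Rfx2-/- mice in all 10 genes, as in 81.8% of all tested genes. The coefficient of variation of Ccna1 was 63.3% in WT and 12.6% in Rfx2-/- mice, and that of Aurkb was 13.4% and 2.49%. WT replicates 3 and 5 were the lowest WT mice in 8 of the 10 genes, as in 36.1% of all tested genes. The exceptions were Ccna2, in which they were the highest, and Cdc25c. In 9 genes every Rfx2-/- mouse lay above both WT replicates 3 and 5. The share of all genes with this pattern was not computed, and these mice were set apart after the data were seen. The count is therefore not read as a trait of the 10 genes. In Ccna1 and Aurka every Rfx2-/- mouse also lay above WT replicates 1, 2 and 4, and such full separation held in 6.5% of all genes.

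**Figure D3:**
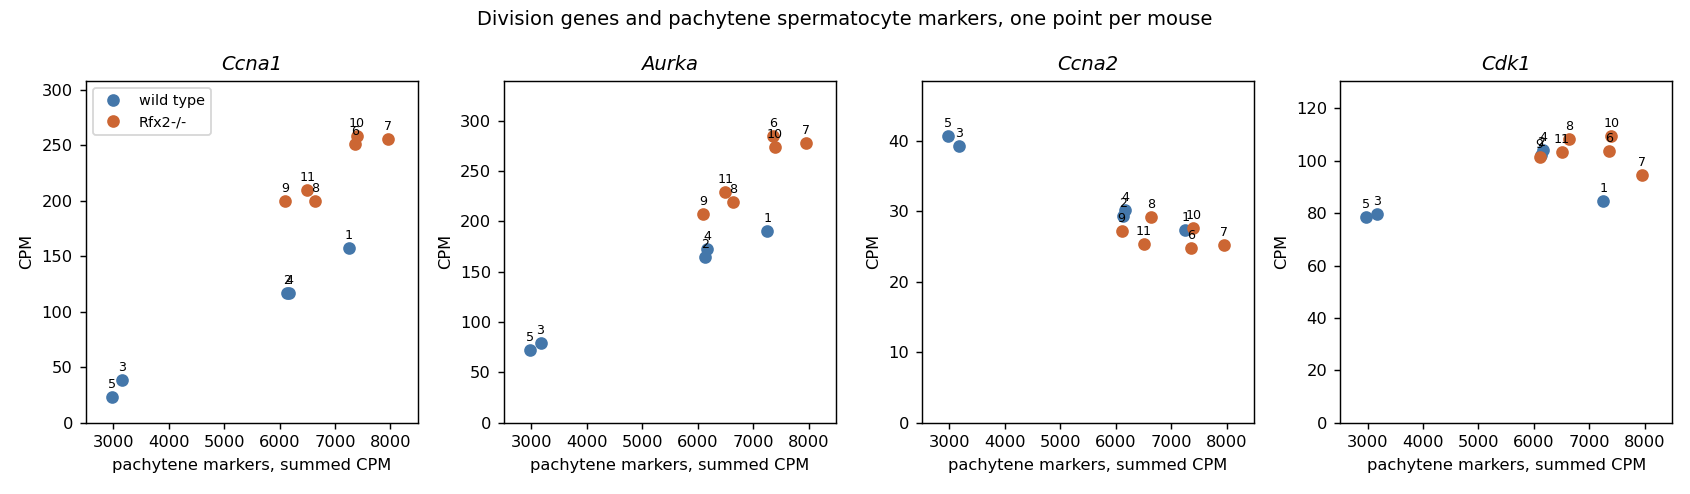
CPM of Ccna1, Aurka, Ccna2 and Cdk1 (linear axes from 0) against the summed CPM of 6 pachytene spermatocyte markers, one numbered point per mouse, WT in blue and Rfx2-/- in orange. WT replicates 3 (3165 CPM of markers) and 5 (2969 CPM) lie alone at the left, and among the other 9 mice the Ccna1 and Aurka points of the genotypes remain apart while those of Ccna2 and Cdk1 overlap.

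The markers of other cells moved with these 2 mice. Sertoli cell markers summed to 730.3 and 802 CPM in WT replicates 3 and 5, to 484 to 625 CPM in the other WT mice and to 455 to 563 CPM in Rfx2-/- mice. Peritubular myoid markers were 437 and 481 CPM there, 229.8 to 311 CPM in the other WT mice and 260.2 to 378 CPM in Rfx2-/- mice. The 8 spermatogonial markers summed to 484 and 464 CPM in WT replicates 3 and 5, against 731 to 854 CPM in the other WT mice and 825 to 1006 CPM in Rfx2-/- mice. Most of this sum, 73.0% over all mice, was Dmrtb1. The members of that list differed. Dmrtb1 (206 and 163 CPM) and Id4 were lowest in WT replicates 3 and 5. Zbtb16, Ret, Kit (77.2 and 78.2 CPM), Stra8 (89.2 and 105 CPM) and Sohlh1 were higher there than in the other WT mice. Gfra1 was neither. The low sum thus follows Dmrtb1 and is not a trait of the list as a whole. The sums of early spermatocyte markers (371 to 558 CPM in WT, 434 to 517 CPM in Rfx2-/- mice) overlapped fully, but its members differed. Prdm9 (40.1 and 36.3 CPM) and Dmc1 (85.7 and 86.6 CPM) were highest in WT replicates 3 and 5. Spo11 (64.2 and 58.8 CPM) was lowest there, and Meiob and Hormad1 were neither. Macrophage markers were 98.6 and 95.9 CPM in WT replicates 3 and 5, 58.0 to 80.8 CPM in the other WT mice and 49.0 to 64.8 CPM in Rfx2-/- mice. Endothelial markers were 44.4 and 46.8 CPM in WT replicates 3 and 5, 23.1 to 32.7 CPM in the other WT mice and 23.1 to 27.3 CPM in Rfx2-/- mice. Leydig cell markers (58.2 to 237 and 34.0 to 228 CPM) and blood markers (33.7 to 114 and 22.7 to 125 CPM) overlapped. All markers were measured, and none stayed at 3 counts or fewer in every mouse. None of the 10 marker lists had a gene that passed the threshold. The part of cell composition in the differences of the cyclins and kinases was not tested. WT replicate 1 had more pachytene marker RNA (7254 CPM) than 3 of the 6 Rfx2-/- mice and more round spermatid marker RNA (407 CPM) than 5 of them. Its levels of Ccna1 (157 CPM), Aurka, Cdk1 and Aurkb were below those of all 6. Its levels of Ccna2, Ccnb1, Ccnb2, Plk1 and Aurkc lay within the Rfx2-/- range, and that of Cdc25c lay above it.

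Without WT replicates 3 and 5, a choice made after the data were seen, the fitted differences of all 10 genes became smaller or changed sign, and Ccna1 passed the threshold. Its log2 fold change was then 0.82, a 1.77-fold difference, with an adjusted p of 0.00479 (edgeR), in a fit that called 1.06% of all genes higher. Aurka had a log2 fold change of 0.51 (adjusted p = 0.0218), Plk1 of 0.45 (0.120), Ccnb2 of 0.33 (0.118) and Ccnb1 of 0.23 (0.203). Ccna2 stood at -0.11 (adjusted p = 0.372), Cdk1 at 0.10 (0.423) and Aurkc at -0.16 (0.859). With 3 WT mice left, the call of Ccna1 rests on fewer controls. It was not made in any of the 11 fits that left out 1 mouse, in which its log2 fold change ran from 1.11 to 1.64.

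**Figure D4:**
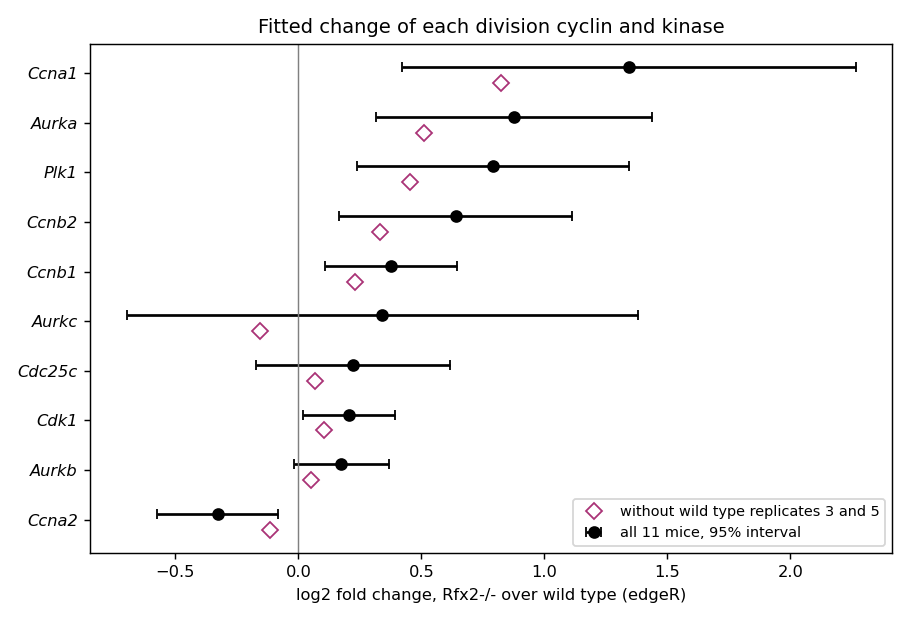
Fitted log2 fold change of each gene, Rfx2-/- over WT (edgeR). Filled points with bars are all 11 mice with the 95% interval, and open diamonds leave out WT replicates 3 and 5. The diamonds lie nearer to 0 than the points for all genes, and Ccna1 goes from 1.34 to 0.82.

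The other genes of the division machinery were read from 5 lists with 71 genes, of which 70 were tested (Wee2 reached at most 14 counts). One passed the threshold as lower and none as higher. The median log2 fold change was 0.07 over the 70 genes, and with the limit at 0.05 there were 14 genes higher and 4 lower (6.15% and 8.78% of all genes).

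The gene that passed was Plk2, a Polo-like kinase with roles in the centriole cycle and the stress response. It fell from 21.1 ± 2.28 CPM in WT to 13.7 ± 0.757 CPM in Rfx2-/- mice, with a log2 fold change of -0.63 ± 0.08 (SE, edgeR adjusted p = 0.00132). WT mice ranged from 18.0 to 23.8 CPM and Rfx2-/- mice from 12.9 to 14.8 CPM, without overlap. It was thus opposite in sign to Plk1.

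Partners and relatives of the Aurora and Polo kinases had a median log2 fold change of 0.33 over 13 genes. Without overlap between the genotypes, 5 of the 13 were higher in Rfx2-/- mice (6.5% of all genes) and 2 were lower (5.2%). Of the 5, Incenp, Birc5 and Cdca8 encode subunits of the chromosomal passenger complex that holds AURKB. They were singled out after their values were seen, and none passed the threshold. Incenp, the scaffold of the complex, had 76.1 ± 9.70 CPM in WT and 98.6 ± 6.70 CPM in Rfx2-/- mice (edgeR adjusted p = 0.0218). Birc5, which encodes survivin, had 54.0 ± 10.7 and 72.3 ± 3.70 CPM (0.0382), and Cdca8, which encodes borealin, had 130.1 ± 19.9 and 164 ± 7.83 CPM (0.0398). Haspin, a histone H3 kinase, had the largest fitted difference of the list, with 363 ± 204 and 712 ± 147 CPM (log2 fold change 0.97, edgeR adjusted p = 0.0776). Sgo1, a protector of centromeric cohesion, had 12.2 ± 1.93 and 7.61 ± 1.05 CPM (log2 fold change -0.68, adjusted p = 0.0102) and did not overlap.

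The spindle assembly checkpoint, which delays anaphase until chromosomes are attached, had a median of 0.21 over 9 genes, of which 2 had a log2 fold change below 0. In 3 of the 9 the Rfx2-/- mice lay above all WT mice (6.5% of all genes) and in none below (5.2%). Ttk, its apical kinase, had 78.6 ± 13.6 CPM in WT and 104 ± 6.26 CPM in Rfx2-/- mice (edgeR adjusted p = 0.0315), and Bub1b had 138 ± 17.2 and 169 ± 6.66 CPM (0.0341), and both were among the 3. The third was Zw10. The anaphase-promoting complex with its activators and inhibitors, securin and separase had a median of 0.08 over 22 genes. Without overlap, 4 of them were higher (6.5% of all genes) and none lower (5.2%). Cdc27, a core subunit, had 146 ± 32.0 and 216 ± 31.1 CPM (0.0354) without overlap, and Fbxo43, an inhibitor of the complex needed in meiosis, had 52.6 ± 17.7 and 78.0 ± 7.04 CPM (0.0619).

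The regulators of CDK1 had a median of -0.03 over 14 tested genes. The 2 other CDC25 phosphatases had fitted differences of opposite sign: Cdc25a had 79.0 ± 10.8 CPM in WT and 111 ± 18.7 CPM in Rfx2-/- mice (log2 fold change 0.50, edgeR adjusted p = 0.0302) and Cdc25b had 12.7 ± 3.49 and 8.94 ± 0.764 CPM (-0.51, 0.0572). Other cyclins and CDKs had a median of -0.08 over 12 genes. Ccnb3, a cyclin of early meiotic prophase, had 34.0 ± 13.3 and 23.4 ± 4.24 CPM (-0.54, 0.125), and the D-type cyclin Ccnd2 had 42.5 ± 17.1 and 30.3 ± 5.63 CPM (-0.49, 0.145).

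**Figure D5:**
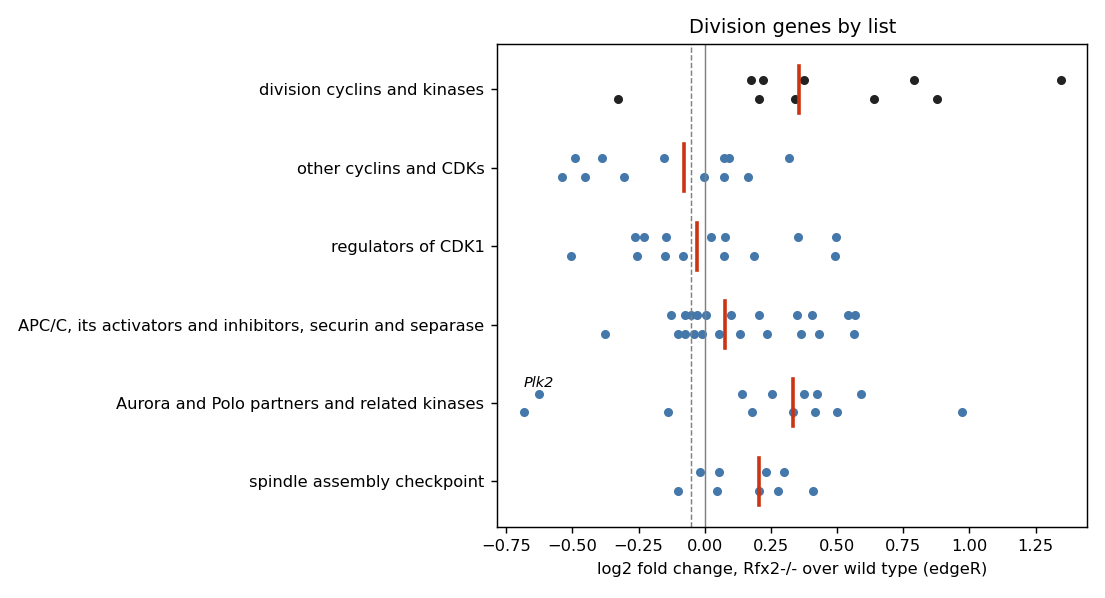
Fitted log2 fold change (Rfx2-/- over WT, edgeR) of each tested gene of the 10 cyclins and kinases and of the 5 other lists. Red bars are list medians, from 0.36 for the 10 genes to -0.08 for other cyclins and CDKs, the dashed line is the median of all tested genes (-0.05), and Plk2 is the one labelled gene that passed the threshold.

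The genes whose log2 CPM ran most like each member over the 11 mice were taken as a description, since all of them share the mice and their depth. For Ccna1 they were Scly, Dnajb2 and Pkdrej (Pearson r = 0.997 each), and 66 genes reached an r of 0.99. Ccnb2 was most like Svbp, Lmf1 and Gps2 (0.997), Plk1 like Rnf40 (0.999), Ckap4 and Cstf1 (0.997), and Aurka like Tbpl1, Ccdc92 and Crat (0.998). These 4 members thus had many near neighbours, with 188 genes at an r of at least 0.99 for Ccnb2, 101 for Plk1 and 175 for Aurka. The other 6 had none at that level. Ccna2 was most like Cnksr2 (0.984), Npnt and Mef2c (0.983). Cdk1 was most like Dut (0.980), Gmnn (0.978) and Unc50 (0.960), and Ccnb1 like Lrrc73, Bap1 and Gemin5 (0.987). Aurkb was most like Gins4, Ube2j2 (0.980) and Cep44 (0.978), Cdc25c like Adgrd1 (0.974), F12 (0.945) and Cfhr3 (0.942), and Aurkc like Ly6k (0.911), Pdcd7 (0.908) and Timm10b (0.906).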

How the data were processed

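RNA libraries (TruSeq) of decapsulated testes from 5 WT and 6 Rfx2-/- mice were read as single ends on a HiSeq2000. Per the labels and the study's methods, the authors mapped reads to GRCm38 with STAR, discarded reads that mapped to several positions or overlapped exons of different genes, and deposited raw counts per Ensembl gene. The submitters' processing notes name CASAVA 1.8.2, STAR 2.4 and featureCounts 1.4.6. Whether strand was used is not given in the sources used here. Genotypes were taken from the labels.

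Counts were tested with edgeR 4.0.16 (quasi-likelihood test, TMM scaling, filterByExpr) in R 4.3.3, with Benjamini-Hochberg adjustment over 15745 genes and calls at an adjusted p of at most 0.01. Alternatives used DESeq2 1.42.0, limma 3.58.1, other scalings and filters, another threshold, a round spermatid covariate and the omission of mice. RPKM are CPM per kilobase of merged exons (GENCODE M21). Totals were compared by an exact permutation test in SciPy 1.17.1.

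Named were the 10 genes, Rfx2, and, from each other list, every called gene and the 2 with the largest absolute fold change. Outside this rule, Incenp, Birc5 and Cdca8, and the genes named for alternative fits, were named after their values were seen. Members and lists were chosen with earlier results of these data known. Precision is limited by the number of mice and by total counts of 22232097 to 29769483.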

Additional observations from a re-analysis of the deposited data

Results flagged for a closer look

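One value stood apart from its group. Bub1b, a spindle assembly checkpoint kinase, was highest in Rfx2-/- replicate 8, at 182 CPM against 164 to 170.4 CPM in the other 5 Rfx2-/- mice, a gap of 0.639 of the range where 0.625 is the limit for 6 samples. Of 44 groups of mice examined this was the only one past its limit, and chance alone passes about 1 group in 20.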

How the results depend on the processing

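No fit called any of the 10 cyclins and kinases lower. The number called higher was 0 in the main edgeR fit and 0 in all 11 fits that left out 1 mouse. With the DESeq2 Wald test it was 3 (Aurka, Ccna1 and Plk1, adjusted p of 0.00414, 0.00475 and 0.00984). It was 1 with limma voom (Ccna1, 0.00806) and 3 at an unadjusted p of at most 0.01 (the same 3 genes). With the adjusted limit raised to 0.05 it was 1 (Aurka). It was 2 with the round spermatid covariate (Plk1, 0.00487, and Ccnb1, 0.00717) and 1 without WT replicates 3 and 5 (Ccna1). The adjusted p of Ccna1 ran from 0.00475 to 0.103 and that of Aurka from 0.00414 to 0.0908 over all fits. The fitted difference of Aurkc was -0.19 with voom and -0.16 without WT replicates 3 and 5, that of Rfx2 (-0.10 with all mice) ran from -0.2293 to 0.0709 when single mice were left out, turning positive without WT replicate 1, and was -0.41 without WT replicates 3 and 5, and that of Ccnd2 was 0.0133 without WT replicates 3 and 5. The cause was not tested.

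Among the other division genes, Plk2 was called lower in every fit. The number called lower was 2 with total counts as library sizes (Cdk6 added), 2 with a robust prior and 2 with a mean count of at least 50 (Sgo1 added in both), 3 with voom and 3 with the covariate (Cdk6 and Sgo1 added), and 4 with DESeq2, with the unadjusted limit of 0.01 and with the adjusted limit of 0.05 (Cdk4 also). Called higher were 14 with each of those 3, 2 with voom (Nek2 and Zw10), 4 with the covariate (Bora, Cdc25a, Cdc27 and Incenp) and 1 without WT replicates 3 and 5 (Nek2). Without single mice, 1 to 2 were called lower (Sgo1 added without WT replicate 1) and 0 to 1 higher (Incenp without WT replicate 1, Sgo2a without WT replicate 4).

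Over all genes, 305 were called lower and 115 higher, against 911 and 1146 with DESeq2, 682 and 367 with voom, 1604 and 1180 with the unadjusted limit, 1382 and 968 with the adjusted limit of 0.05, and 925 and 735 with the covariate. Without single mice the counts were 184 to 393 lower and 45 to 192 higher. Without WT replicate 1 they were 393 and 192, and without Rfx2-/- replicate 10 they were 184 and 45. Scaling by total counts moved the median of all genes from -0.05 to -0.22. The difference in total counts (-4345023) ran from -4867104 to -3890143 without single mice (exact permutation p of 0.00952 to 0.0286). No paired analysis was made, because the labels do not say which mice were littermates. The study states that littermates of the same age were used where this was possible.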
